A study of Mus musculus with 10 samples.

Results

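Glutathione and thiol antioxidant genes were followed in the E13.5 mouse lens after loss of Dicer, the ribonuclease that releases mature microRNAs from their precursors. The genes were the glutathione S-transferase, glutathione peroxidase, peroxiredoxin and thioredoxin reductase families. A fixed list of glutathione synthesis, thioredoxin, superoxide dismutase, catalase and stress enzymes was added. All were picked by symbol, by a rule set with earlier results of these data known. The rule found 51 genes among the 19938 tested, each read from the probe set with the highest mean signal. DicerCN embryos were Le-Cre+/-;DicerloxP/loxP, in which Cre is driven by the Pax6 P0 promoter, active in the surface ectoderm from which lens and corneal epithelium arise. Control embryos were Le-Cre-/-;DicerloxP/loxP; some labels call them wild type, although they carry the same flanked alleles. Each group had 5 arrays, each from the 2 lenses of 1 embryo. Cre was present in DicerCN embryos and absent from controls, so effects of Cre and of Dicer loss cannot be told apart.

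Glutathione, a tripeptide that holds a cysteine, is made in large amounts by the lens and keeps the thiols of the long-lived crystallins reduced. Cells import cystine through the exchanger xCT, encoded by Slc7a11, join its cysteine to glutamate and glycine, and spend the product through peroxidases, which reduce hydrogen peroxide and lipid peroxides, and through S-transferases, which attach it to reactive compounds. Thioredoxins and peroxiredoxins form a parallel thiol system, and many genes of both systems are targets of the transcription factor Nrf2.

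In DicerCN lenses 12 of the 51 genes were lower and 0 were higher than in control lenses at a limma adjusted p under 0.05. Of all 19938 genes, 3.97% were lower and 2.56% higher by the same test, and 6.54% differed in either direction. The 12 comprised Slc7a11, 6 of the 7 mu class S-transferases (Gstm1, Gstm3, Gstm4, Gstm5, Gstm6 and Gstm7), Gsto2, Gstz1, Gpx1, Txn2 and Sod2. Gstm3 did not pass on its second probe set. Read from that one, 11 of the 51 genes and 5 of the 7 mu class genes would pass. Outside the mu class, 6 of 44 genes were lower. At an unadjusted p under 0.05, 16 were lower and 3 higher, together 19 of 51, where 18.6% of all genes passed in either direction. The median log2 change was −0.090 over the 51 genes and −0.0014 over all genes. All 5 DicerCN arrays lay below all 5 control arrays in 9 of the 51 genes and above them in 0, where 4.42% and 2.96% of all genes did so.

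The promoter windows of Slc7a11, the gene of the 51 with the largest change, and of 3 mu class genes that fell are shown because they hold, or lack, the elements through which antioxidant and amino acid starvation signals are known to act. Each runs from 250 bases before to 50 bases after the first listed start in RefSeq (build GRCm38.p6), 5′ to 3′ on the strand of the gene, and capitals mark every match to TGACNNNGC, the core of the antioxidant response element bound by Nrf2, or TGATGNAA, an amino acid response element bound by Atf4. The windows are chr3:50443564-50443863, minus strand, for Slc7a11; chr3:107895604-107895903, plus strand, for Gstm5; chr3:107931768-107932067, minus strand, for Gstm7; and chr3:108017924-108018223, minus strand, for Gstm1. All lie on chromosome 3.
Slc7a11: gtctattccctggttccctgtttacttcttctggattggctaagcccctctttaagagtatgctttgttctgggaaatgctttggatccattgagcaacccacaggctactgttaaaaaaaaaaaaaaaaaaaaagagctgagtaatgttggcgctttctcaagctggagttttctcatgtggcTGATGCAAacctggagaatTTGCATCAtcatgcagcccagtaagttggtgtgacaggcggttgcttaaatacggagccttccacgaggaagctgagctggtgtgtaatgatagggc
Gstm5: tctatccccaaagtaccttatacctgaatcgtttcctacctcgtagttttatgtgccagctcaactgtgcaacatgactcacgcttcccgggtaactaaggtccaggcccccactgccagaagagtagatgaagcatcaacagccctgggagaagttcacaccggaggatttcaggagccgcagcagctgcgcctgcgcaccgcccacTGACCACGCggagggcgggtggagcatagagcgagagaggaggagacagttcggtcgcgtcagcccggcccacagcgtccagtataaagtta
Gstm7: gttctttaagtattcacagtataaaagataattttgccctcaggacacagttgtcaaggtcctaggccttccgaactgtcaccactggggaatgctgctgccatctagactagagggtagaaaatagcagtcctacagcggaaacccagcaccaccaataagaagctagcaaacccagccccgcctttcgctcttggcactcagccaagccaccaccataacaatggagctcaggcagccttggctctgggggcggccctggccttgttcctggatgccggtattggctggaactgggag
Gstm1: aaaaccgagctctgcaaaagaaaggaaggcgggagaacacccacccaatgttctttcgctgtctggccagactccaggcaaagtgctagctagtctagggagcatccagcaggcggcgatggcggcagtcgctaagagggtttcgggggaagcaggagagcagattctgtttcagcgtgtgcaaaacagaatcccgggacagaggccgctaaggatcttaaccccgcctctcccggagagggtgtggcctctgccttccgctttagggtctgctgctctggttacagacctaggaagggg
Slc7a11 carried TGATGCAA beginning 66 bases before its start and the same element on the other strand, read as TTGCATCA, beginning 47 bases before it. Gstm5 carried TGACCACGC beginning 42 bases before its start, and the windows of Gstm7 and Gstm1 held neither element.

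Promoter windows were found for 45 of the 51 genes, and 5 motifs were searched on both strands. TGATGNAA stood in 1 of the 45, that of Slc7a11, and in 4.06% of all 27025 promoters. TGACNNNGC stood in 7 of the 45 (Gclm, Gstm5, Gsta3, Mgst1, Prdx1, Srxn1 and Sod1) and in 12.5% of all promoters. Of the 12 genes that fell, 1 held each of these 2 elements. TGANTCA, the AP-1 site, was found in 5 members (7.93% of all promoters), 1 of which, Gstm5, fell; in Prdx1 it overlapped the antioxidant element. TGCTGAC, a Maf recognition sequence, was found in 4 members (4.58% of all), in Gstp1 overlapping the AP-1 site. CACGTG, the E-box, was found in 2 (7.24% of all), and no gene that fell held either of these last motifs.

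Slc7a11, the cystine and glutamate exchanger, had log2 signals of 8.73, 8.98, 8.57, 8.89 and 8.86 in DicerCN replicates 1 to 5, against 10.52, 10.87, 10.98, 9.91 and 10.35 in control replicates 1 to 5. The groups did not overlap, and the highest DicerCN array stood clearly below the lowest control. Its mean was 3.29-fold lower (fell by 1.72, SE 0.172, limma adjusted p = 0.000153), rank 29 of all genes by p. The fall ranged from 1.50 to 1.88 on the log2 scale over the alternative fits, and its adjusted p was at most 0.0170. The spread between control arrays (SD 0.43, n = 5) was wider than between DicerCN arrays (SD 0.16, n = 5).

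The enzymes that turn the imported cysteine into glutathione did not pass the test in either direction. Gclc and Gclm, the catalytic and modifier subunits of glutamate cysteine ligase, which sets the rate of synthesis, stood at 0.071 (95% interval −0.16 to 0.30) and 0.18 (−0.072 to 0.42) on the log2 scale. Gss, glutathione synthetase, stood at −0.12 (−0.36 to 0.13). Gsr, which reduces oxidised glutathione, stood at 0.10 (−0.070 to 0.28), with 4 of 5 DicerCN arrays above all controls. None of these intervals reached the size of the Slc7a11 change.

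**Figure D1:**
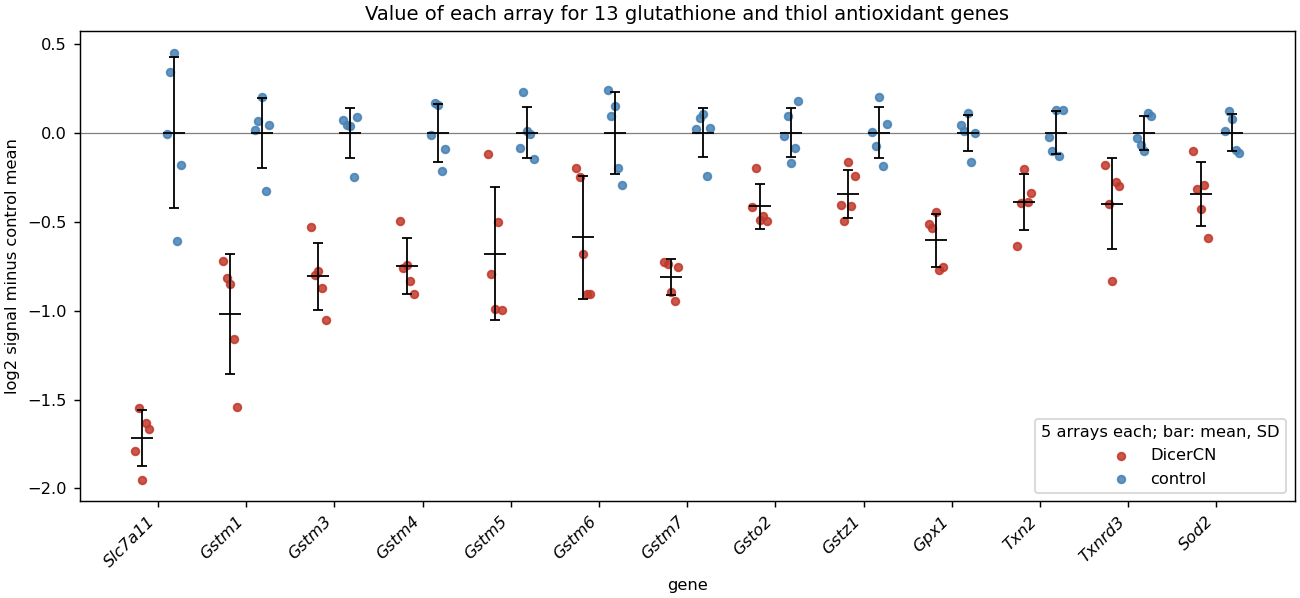
Log2 signal of each array minus the control mean (vertical axis) for the 12 genes that passed the test and for Txnrd3 (horizontal axis), DicerCN arrays in red and control arrays in blue, with bars for the mean and SD of 5 arrays. The 5 DicerCN arrays of Slc7a11 lie 1.72 below the control mean on average, and those of Gstm1, Gstm3, Gstm4, Gstm7, Gsto2, Gpx1, Txn2 and Txnrd3 also lie below every control array.

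Mu class S-transferases conjugate glutathione to electrophiles, and their genes stand side by side on chromosome 3. All 7 were measured, and on the probe sets used all 7 had a lower mean in DicerCN lenses, as did 10036 of all 19938 genes. On those probe sets 6 of 7 passed the test, with a median log2 change of −0.75. Gstm3 had a second probe set without a fall (0.092), and with it not all 7 had a lower mean. Read from that probe set, 5 of the 7 mu class genes, and 11 of the 51 genes, would pass. Gstm1 had log2 signals of 9.27, 9.17, 9.14, 8.83 and 8.45 in DicerCN replicates 1 to 5, against 10.01, 10.06, 10.19, 9.66 and 10.04 in control replicates 1 to 5. No arrays of the 2 groups overlapped, and the mean was 2.03-fold lower (fell by 1.02, SE 0.151, limma adjusted p = 0.00173).

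Gstm7 stood at 8.22, 8.21, 8.05, 8.00 and 8.19 in DicerCN replicates 1 to 5, against 8.97, 9.03, 9.05, 8.71 and 8.97 in control replicates 1 to 5. Its groups were tight and separate, and it was 1.76-fold lower (SE of the log2 change 0.0849, adjusted p = 0.000177). Gstm4 stood at 7.79, 7.52, 7.54, 7.45 and 7.38 in DicerCN replicates 1 to 5, against 8.27, 8.45, 8.44, 8.07 and 8.19 in control replicates 1 to 5. Here too every DicerCN array was below every control, and the mean was 1.68-fold lower (adjusted p = 0.000962).

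Gstm3 read 6.46, 6.19, 6.21, 6.12 and 5.94 in DicerCN replicates 1 to 5, against 7.06, 7.03, 7.03, 6.74 and 7.08 in control replicates 1 to 5, which made it 1.75-fold lower (adjusted p = 0.000741). A second probe set named Gstm3 did not show this fall: its change was 0.092 (SE 0.107, adjusted p = 0.770 over all probe sets). Averaged over both probe sets, Gstm3 fell by 0.36 (adjusted p = 0.0326). The annotation gives both probe sets the same gene and accessions and no position. By number, the probe set without a fall lies among those of Gstm1, Gstm2, Gstm4, Gstm6 and Gstm7. It stands between those of Gstm6 and Gstm2, as Gstm3 does in chromosomal order, while the one used here lies apart. What each of them measures was not checked, so whether Gstm3 fell depends on the probe set chosen.

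Gstm5 and Gstm6 fell with overlap between the groups. Gstm5 read 9.60, 8.92, 8.72, 9.22 and 8.72 in DicerCN replicates 1 to 5, against 9.63, 9.94, 9.72, 9.71 and 9.57 in control replicates 1 to 5. Replicate 1 was the DicerCN array within the control range, and the mean was 1.60-fold lower (adjusted p = 0.0196, and 0.0568 without control replicate 2). Gstm6 read 5.68, 5.63, 5.19, 4.97 and 4.97 in DicerCN replicates 1 to 5, against 6.12, 5.97, 6.03, 5.68 and 5.58 in control replicates 1 to 5, with DicerCN replicates 1 and 2 inside the control range. It was 1.50-fold lower (adjusted p = 0.0460), and it no longer passed without 1 of 6 arrays (DicerCN replicates 3, 4 and 5 and control replicates 1, 2 and 3), at adjusted p up to 0.124.

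Gstm2 was the mu class gene that did not pass. It read 6.80, 6.74, 6.76, 6.88 and 6.70 in DicerCN replicates 1 to 5, against 7.21, 7.12, 7.26, 6.79 and 6.94 in control replicates 1 to 5. The change was −0.29 (SE 0.0949, adjusted p = 0.0983). It passed without control replicate 4 (adjusted p = 0.0316), but not without any other single array (adjusted p up to 0.240). The mu class coding sequences are close relatives, and probes of 1 gene can bind transcripts of another. The separate values are therefore uncertain, and how many of the 7 falls were measured independently cannot be told from these data.

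The nearest measured genes on either side, 3 to the left and 3 to the right in the RefSeq order of build GRCm38.p6 (chosen after their values were seen), did not pass the test. On the Gstm5 side, 4933431E20Rik stood at −0.30 (adjusted p = 0.0705), Eps8l3 at −0.039 and Csf1, a growth factor of macrophages, at 0.47 (adjusted p = 0.100). On the Gstm4 side, Ampd2 stood at 0.23 (adjusted p = 0.104), Gnat2 at −0.19 and Gnai3 at 0.0059. The 6 neighbours lay between −0.30 and 0.47. On the probe sets used, the 7 mu class genes lay between −1.02 and −0.29, while the second probe set of Gstm3 stood at 0.092.

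**Figure D2:**
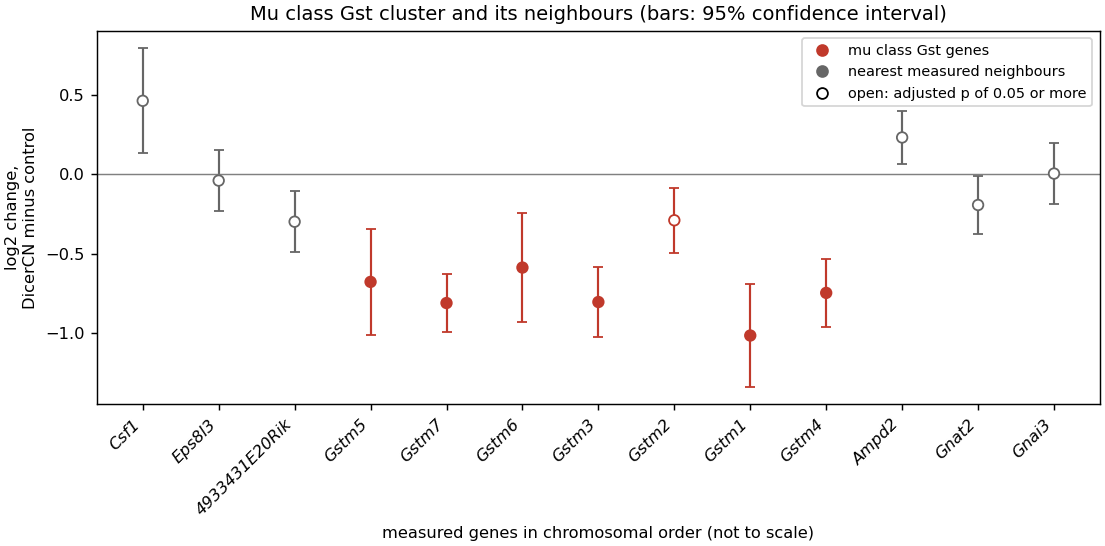
Log2 change, DicerCN minus control (vertical axis, bars for 95% confidence intervals), of the 7 mu class genes in red and the 3 nearest measured genes on each side in grey, in chromosomal order and not to scale. Filled points passed the test at adjusted p under 0.05: 6 of the 7 mu class genes and 0 of the 6 neighbours. Gstm3 is drawn at the place of its gene from its probe set with the higher mean signal, whose number lies apart from those of Gstm6 and Gstm2. Its other probe set stood at 0.092 and did not pass.

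Among the 12 other soluble S-transferases, 2 were lower and 0 higher, and their median log2 change was −0.090. Gsto2, an omega class enzyme that also reduces dehydroascorbate, read 5.41, 5.64, 5.34, 5.37 and 5.34 in DicerCN replicates 1 to 5, against 5.81, 5.93, 5.67, 5.75 and 6.01 in control replicates 1 to 5. The groups lay close together without overlapping, and Gsto2 was 1.33-fold lower (adjusted p = 0.0149). Its neighbour in the family, Gsto1, stood at −0.029 (95% interval −0.25 to 0.20).

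Gstz1, a zeta class enzyme of tyrosine breakdown, read 8.11, 8.02, 8.36, 8.11 and 8.28 in DicerCN replicates 1 to 5, against 8.52, 8.45, 8.72, 8.34 and 8.57 in control replicates 1 to 5. DicerCN replicate 3 overlapped the lowest control, and the mean was 1.27-fold lower (adjusted p = 0.0428). That call was lost without any 1 of 7 arrays (DicerCN replicates 1, 2 and 4 and control replicates 1, 2, 3 and 5), at adjusted p up to 0.0997. Gsta3, an alpha class enzyme, was at −0.29 (SE 0.0948, adjusted p = 0.102), with 4 of 5 DicerCN arrays (5.64, 5.72, 5.47, 5.29 and 5.60) below all controls (5.89, 5.80, 6.01, 5.70 and 5.75).

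The pi class gene Gstp1 stood at −0.061 (95% interval −0.24 to 0.12). The others not yet named, Gsta4, Gstk1, Gstp3, Gstt1, Gstt2, Gstt3 and Gstt4, lay between −0.16 and 0.15 and did not pass. Of the 3 microsomal transferases, Mgst2 and Mgst3 stood at 0.12 and −0.013. Mgst1 read 5.80, 5.44, 5.33, 6.52 and 5.87 in DicerCN replicates 1 to 5, against 5.29, 5.14, 5.62, 5.12 and 5.25 in control replicates 1 to 5. It had the highest mean change of the 51 genes (0.51, SE 0.190, adjusted p = 0.157), with DicerCN replicate 4 well above the rest, and did not pass.

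Of 8 glutathione peroxidases 1 fell. Gpx1, the cytosolic selenoenzyme that reduces hydrogen peroxide, read 10.57, 10.55, 10.64, 10.31 and 10.33 in DicerCN replicates 1 to 5, against 11.13, 11.09, 11.20, 10.92 and 11.08 in control replicates 1 to 5. Its groups were separate, and it was 1.52-fold lower (fell by 0.60, SE 0.0868, adjusted p = 0.00145). The fall ran from 0.53 to 0.64 over all alternative fits, each past the test.

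Gpx4, which reduces lipid peroxides in membranes, stood at 0.0096 (95% interval −0.17 to 0.19), and its second probe set at 0.013. The other peroxidases, Gpx2, Gpx3, Gpx5, Gpx6, Gpx7 and Gpx8, lay between −0.14 and 0.23. Gpx2, Gpx5 and Gpx6 were among the 6 members in the lowest 25% of all genes by mean signal, beside Gstp3, Gstt1 and Nqo1, so changes of these genes may not be measurable. Of the genes that passed, Gstm6 and Gsto2 had the lowest signal and lay just above that cut, at 28.0% and 28.8% of all genes.

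**Figure D3:**
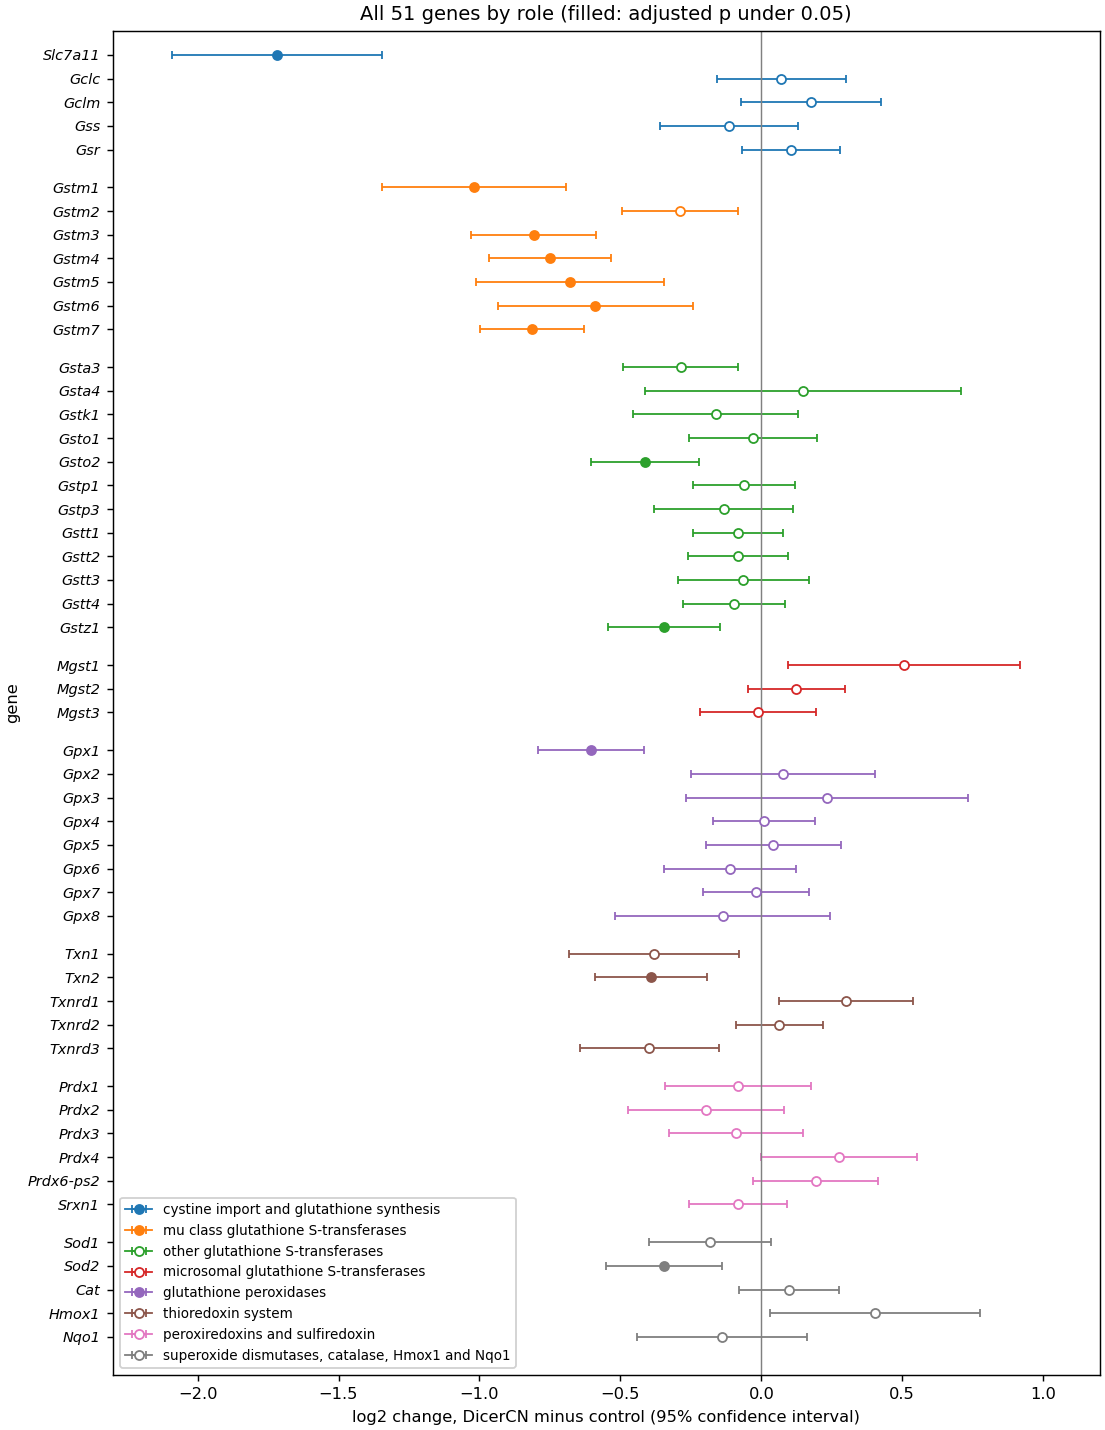
Log2 change, DicerCN minus control (horizontal axis, bars for 95% confidence intervals), of all 51 genes (vertical axis) in colours for their roles. Filled points are the 12 genes at adjusted p under 0.05, all of them left of 0; open points did not pass.

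In the thioredoxin system 1 of 5 genes passed the test. Txn2, the mitochondrial thioredoxin, read 9.74, 9.99, 10.18, 9.99 and 10.04 in DicerCN replicates 1 to 5, against 10.36, 10.28, 10.51, 10.25 and 10.51 in control replicates 1 to 5. The groups did not overlap, and it was 1.31-fold lower (adjusted p = 0.0239). The call was lost without DicerCN replicate 4 or control replicate 1, 3 or 5, at adjusted p up to 0.0665.

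Txnrd3, a reductase of thioredoxin and glutathione, read 6.97, 6.75, 6.31, 6.87 and 6.85 in DicerCN replicates 1 to 5, against 7.12, 7.08, 7.04, 7.26 and 7.24 in control replicates 1 to 5. All DicerCN arrays were below all controls, and the change was −0.40 (SE 0.114) at an adjusted p of 0.0578. It passed without DicerCN replicate 1 (adjusted p = 0.0379), but not without any other single array (adjusted p up to 0.132). Txn1, the cytosolic thioredoxin, read 11.13, 10.52, 10.73, 10.90 and 10.43 in DicerCN replicates 1 to 5, against 10.91, 11.33, 11.25, 11.26 and 10.87 in control replicates 1 to 5. Its groups overlapped, and the change was −0.38 (SE 0.140, adjusted p = 0.146). It passed without DicerCN replicate 1 (−0.48, adjusted p = 0.0479), but not without any other single array (adjusted p up to 0.301).

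Txnrd1, the cytosolic reductase and a classical Nrf2 target, pointed the other way. It read 9.28, 9.04, 8.70, 9.25 and 9.27 in DicerCN replicates 1 to 5, against 8.70, 8.89, 8.85, 8.86 and 8.74 in control replicates 1 to 5. The change was 0.30 (SE 0.110, adjusted p = 0.144). It passed without DicerCN replicate 3 (0.40, adjusted p = 0.0147), but not without any other single array (adjusted p up to 0.296). Txnrd2, the mitochondrial reductase, stood at 0.064 (95% interval −0.091 to 0.22).

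None of the 6 peroxiredoxin and sulfiredoxin genes passed, and their changes lay between −0.20 and 0.27. Prdx1 and Prdx2, cytosolic peroxiredoxins, stood at −0.083 and −0.20, Prdx3 of mitochondria at −0.090 and Prdx4 of the endoplasmic reticulum at 0.27 (adjusted p = 0.271). Second probe sets of Prdx1 and Prdx2 stood at −0.11 and −0.085 and did not pass either. Srxn1, which repairs overoxidised peroxiredoxins and is a Nrf2 target, stood at −0.083. Prdx6-ps2, a pseudogene by its name, stood at 0.19; Prdx5 and Prdx6 were not analysed here.

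Sod2, the mitochondrial manganese superoxide dismutase, read 9.30, 9.09, 8.98, 9.11 and 8.81 in DicerCN replicates 1 to 5, against 9.41, 9.53, 9.48, 9.31 and 9.29 in control replicates 1 to 5. DicerCN replicate 1 lay within the control range, and Sod2 was 1.27-fold lower at an adjusted p of 0.0474. This was the call nearest the threshold: leaving out any single array other than DicerCN replicate 1 ended it (9 of 10 arrays), at adjusted p up to 0.121. Sod1, the cytosolic dismutase, stood at −0.18 (95% interval −0.40 to 0.035), Cat, catalase, at 0.099 and Nqo1, a quinone reductase, at −0.14.

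Hmox1, heme oxygenase 1, read 9.13, 8.16, 8.98, 8.61 and 8.28 in DicerCN replicates 1 to 5, against 8.43, 8.30, 8.29, 8.13 and 8.00 in control replicates 1 to 5. The change was 0.40 (SE 0.172, adjusted p = 0.222). Replicates 1, 3 and 4, the DicerCN arrays above all controls in Hmox1, were also the 3 with the highest macrophage marker scores (0.88, 1.04 and 0.69, against −0.32 to 0.35 in control arrays). With that score as a covariate the change of Hmox1 was −0.054 (adjusted p = 0.943). The score itself went with genotype (0.21 to 1.04 in DicerCN arrays), so the covariate also takes up part of the group difference. Whether macrophages had a part in the Hmox1 signal was not tested.

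Signals of markers of other tissues differed between arrays. All 15 measured lens markers lay above the median gene in signal, 14 of them in the top 10%. Of the 15, 1 fell (Crygb, a crystallin, by 0.60, adjusted p = 0.0179), 13 had a lower mean in DicerCN arrays, with Pitx3 at −0.40 (adjusted p = 0.0611) and Sox1 at −0.36 next by p, and their summed linear signal ran from 68625 to 87920 in DicerCN arrays, against 83473 to 92051 in control arrays. Of 16 macrophage markers, 3 rose (Csf1r by 0.86, Cx3cr1 by 0.73 and Ctss by 0.73), and all 16 had a higher mean in DicerCN arrays. At an unadjusted p under 0.05, 14 of the 16 were higher, where 18.6% of all genes passed in either direction. The summed linear signal of the 16 ran from 1974 to 3655 in DicerCN arrays, against 1317 to 2097 in control arrays. For 14 neural retina markers, of which 0 passed, the sums ran from 7768 to 15405 in DicerCN arrays, against 7773 to 8525 in control arrays, with DicerCN replicate 5 highest. All 14 had a higher mean in DicerCN arrays, led by p by Sox2 at 0.38, Lhx2 at 0.91 and Six6 at 0.84. The 16 striated muscle markers, 0 of which passed, summed to between 1254 and 1525 in DicerCN arrays, against 1150 to 20413 in control arrays, with control replicate 4 highest. All 16 had a lower mean in DicerCN arrays, led by p by Mylpf at −0.83, Tnni1 at −0.63 and Myf5 at −0.46. No marker is listed at 0, and 1 macrophage, 1 retina and 2 muscle markers lay in the lowest 25% of genes by signal.

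Of 10 pigment epithelium markers 0 passed, but 9 had a higher mean in DicerCN arrays and 5 were higher at an unadjusted p under 0.05. Pmel stood at 1.47 (adjusted p = 0.0609), Dct at 1.37 (adjusted p = 0.123) and Tyrp1 at 1.09 (adjusted p = 0.0904), genes of melanin formation. Their sums ran from 709 to 2448 in DicerCN arrays, against 759 to 939 in control arrays, and the score was 0.72, 1.23 and 0.82 in DicerCN replicates 1, 4 and 5, against at most 0.19 in control arrays; 3 of the 10 lay in the lowest 25% of genes by signal. All 12 vessel markers had a higher mean in DicerCN arrays and 0 passed, with Tek at 0.45 (adjusted p = 0.113), Pdgfrb at 0.40 and Cdh5 at 0.43 first by p and sums of 3165 to 7371, against 3479 to 5087 in control arrays.

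Of 12 embryonic red cell markers, 10 had a higher mean in DicerCN arrays (median 0.19), while 1 fell, Ermap, by 0.77 (adjusted p = 0.000205); Epor stood at 0.27 and Alas2 at 0.62. Their sums ran from 8826 to 13889 in DicerCN arrays, against 6863 to 12443 in control arrays. Of 11 periocular mesenchyme markers, 10 had a higher mean in DicerCN arrays (median 0.34), while 1 fell, Pdgfra, by 0.58 (adjusted p = 0.0423); Lum stood at 1.08 (adjusted p = 0.177) and Foxc1 at 0.41. Their sums ran from 2695 to 6750 in DicerCN arrays, against 3138 to 7536 in control arrays. Pdgfra, at a mean log2 signal of 11.07 in control arrays, made up a large part of these sums. The score reached 1.01 in DicerCN replicate 3 and 1.12 in control replicate 4, against −0.47 to −0.14 in the other controls. In bulk RNA, fewer cells of a type and less RNA per cell cannot be told apart. Dicer1 stood at 0.13 (SE 0.0844, adjusted p = 0.472), and since the flanked exons are not named in the labels this checks nothing.

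Whether these cells had a part in any of the changes was not tested. Scores of the retina, macrophage, red cell, muscle and mesenchyme markers were added to the fit. Those of the lens, pigment epithelium and vessel markers were not. The lens score ran from −0.46 to 0.11 in DicerCN arrays, against −0.085 to 0.069 in control arrays. With the retina or the macrophage score as a covariate, 7 of the 51 genes passed, against 12 without. Slc7a11, Gstm1, Gstm3, Gstm4, Gstm7 and Gpx1 passed in every one of the 23 alternative fits. The calls of Gstm5 (adjusted p = 0.0868), Gstm6 (0.189), Gsto2 (0.0586), Gstz1 (0.0696) and Sod2 (0.193) were lost with the retina score. With the macrophage score the same 5 genes (0.0876 for Gstm5, 0.298 for Gstm6, 0.364 for Gsto2, 0.297 for Gstz1 and 0.181 for Sod2) and Txn2 (0.325) were lost, and Txn1 passed (−0.76, 0.0414). Over all genes the macrophage score brought the calls down to 205, against 1303 without it.

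**Figure D4:**
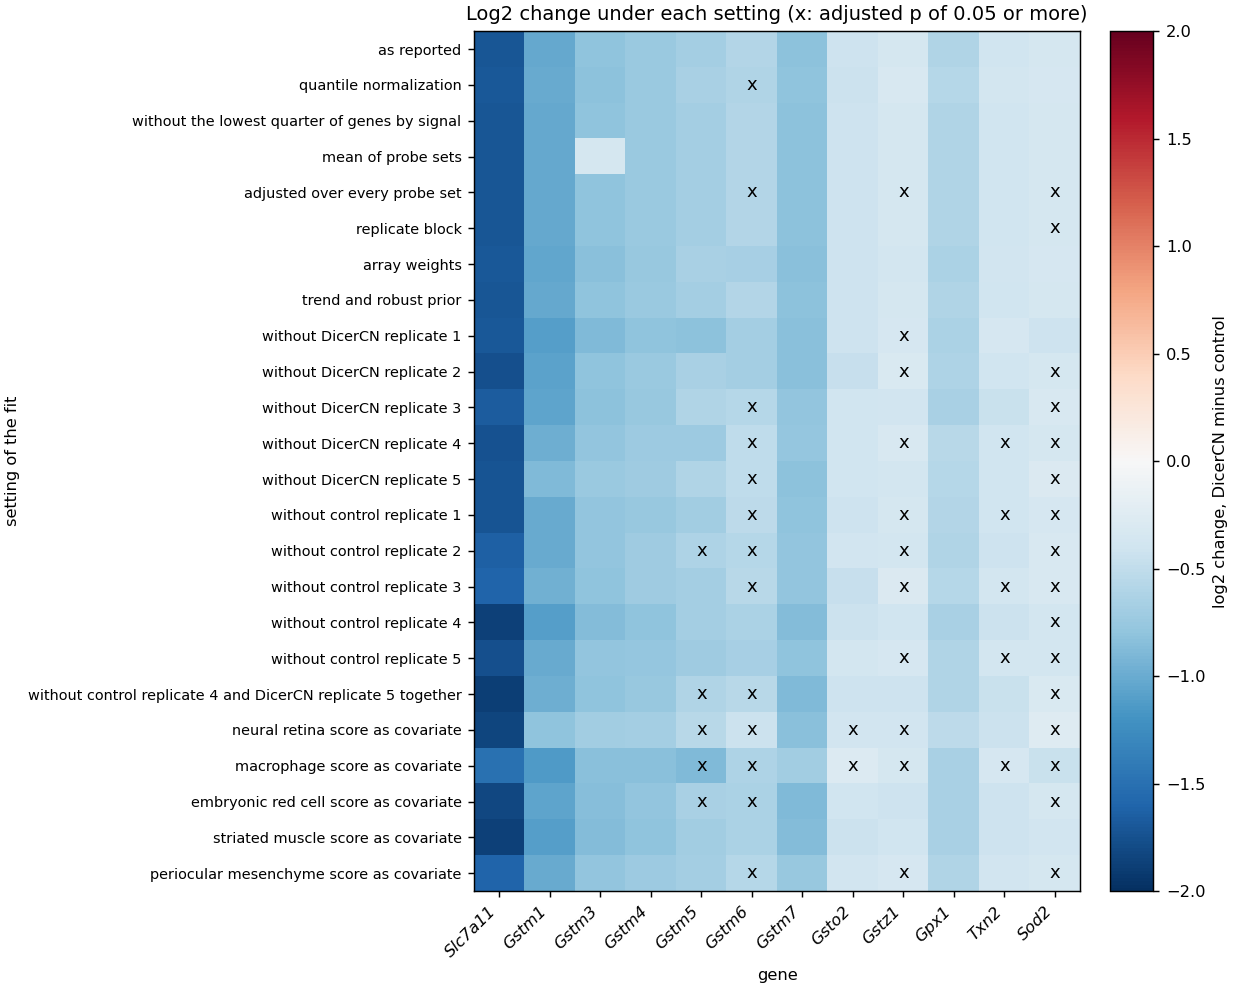
Log2 change, DicerCN minus control (colour, blue for lower in DicerCN), of the 12 genes that passed the test (horizontal axis) as reported and under each of 23 alternative fits (vertical axis). A cross marks an adjusted p of 0.05 or more; the columns of Slc7a11, Gstm1, Gstm3, Gstm4, Gstm7 and Gpx1 hold none.

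Genes around these systems passed the test in both directions. By the same test 2.56% of all genes were higher and 3.97% lower, which is the background for each list below. Of 14 regulators of the Nrf2 programme, 2 rose and 1 fell, with a median log2 change of −0.087. Sqstm1, an adaptor that binds Keap1 for autophagy, rose by 0.63 (adjusted p = 0.00252) and Bach1, a repressor at antioxidant response elements, by 0.36 (adjusted p = 0.0398). Rbx1, a subunit of the ligase that degrades Nrf2, fell by 0.45 (adjusted p = 0.0439). Nfe2l2, the gene of Nrf2, and Keap1, its inhibitor, were picked out once their values were known and stood at −0.22 (adjusted p = 0.403) and −0.29 (adjusted p = 0.0524).

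Of 22 measured other Nrf2 targets, 2 rose and 2 fell, with a median log2 change of −0.013. The metallothioneins Mt1 and Mt2, cysteine-rich metal binders, rose by 0.81 (adjusted p = 0.00162) and 0.68 (adjusted p = 0.0178). Idh1 and Taldo1, enzymes of NADPH supply and of the pentose phosphate pathway, fell by 0.60 (adjusted p = 0.00861) and 0.36 (adjusted p = 0.0448).

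Among 22 genes of glutathione breakdown, glutaredoxins and glyoxalase, 4 fell and 0 rose, with a median log2 change of −0.012. Ggct, which opens gamma-glutamyl peptides in glutathione turnover, fell by 0.67 (adjusted p = 0.0422), Glrx5, a mitochondrial glutaredoxin of iron-sulfur cluster assembly, by 0.49 (adjusted p = 0.00588), Hagh, glyoxalase 2, by 0.42 (adjusted p = 0.0273) and Ptges2, a prostaglandin synthase, by 0.35 (adjusted p = 0.0201).

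Of 20 measured genes of cystine, cysteine and glutamate supply, 2 rose and 2 fell, with a median log2 change of −0.043. The glutamine transporters Slc38a1 and Slc38a2 rose by 0.44 (adjusted p = 0.00571) and 0.40 (adjusted p = 0.0358). Slc25a11, a mitochondrial oxoglutarate carrier, fell by 0.48 (adjusted p = 0.00880) and Mpst, which passes on sulfur from mercaptopyruvate, by 0.38 (adjusted p = 0.00420). Slc3a2, the heavy chain that carries xCT to the membrane, was likewise picked out with its value known and stood at −0.21 (adjusted p = 0.217), so the fall of Slc7a11 had no passing counterpart in its partner.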

How the data were processed

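Total RNA (100 ng) from the lens pair of each embryo was labelled with an Affymetrix whole-transcript sense kit, 1 array an embryo, per the labels' protocols. GCOS is the tool named in the submitters' processing notes. By their range (1.91 to 15.2, array medians 6.54 to 6.56) the deposited values were read as log2 signals; the authors' summary and normalization methods are not given in the sources used. Near-equal medians hide any change of total RNA. Precision is limited by the number of arrays.

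Of 35557 probe sets, 21789 had 1 symbol in the platform annotation, 1621 several and 12147 none, and the highest-mean probe set per gene left 19938 genes; 6 probe sets shared between S-transferase genes were left out. Groups were compared with limma 3.58.1 (R 4.3.3), lmFit and eBayes, 2-sided, Benjamini-Hochberg over all genes. A run of the fit on simulated data drew genes independently, without shared array or tissue differences, so it says nothing on those. Marker scores are mean log2 signal minus the control mean. The members, lists and tests were chosen with earlier results of these data known. Every member was named; members at an unadjusted p under 0.05 are given by array, and list genes where they passed, with the next by p up to 3 a list; a few regulators were added with their values known. The labels call the arrays biological replicates; arrays were not paired. Alternatives were quantile normalization, a signal filter, probe set averaging, adjustment over all probe sets, a replicate block, array weights, a robust trended prior, left-out arrays and marker scores as covariates.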

Additional observations from a re-analysis of the deposited data

Results flagged for a closer look

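In 3 of 102 groups of 5 arrays, 1 array stood apart from the other 4 by Dixon's criterion, which chance meets in about 1 of 20 groups. Gstm7 in control replicate 4 read 8.71, against 8.97 to 9.05 in the other controls, and Gstm3 in the same array read 6.74, against 7.03 to 7.08. Without that array the changes were −0.87 for Gstm7 and −0.87 for Gstm3. Control replicate 4 also had a striated muscle score of 2.61, against −0.85 to −0.48 in the other controls; its part in these 2 values was not tested. Gsto2 in DicerCN replicate 2 read 5.64, against 5.34 to 5.41 in the other DicerCN arrays, and without it the change was −0.47.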

How the results depend on the processing

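Over 23 alternatives, 6 of the 12 calls were kept in every fit (reading Gstm3 from its second probe set alone was not among the fits), 6 were lost in at least 1, and 0 reversed. Of 1167 gene and setting pairs, 1066 kept direction and side of the threshold, 52 lost and 11 gained a call, and 38 changed sign, all in genes that did not pass. The number of member genes called was 7 with the retina score, 7 with the macrophage score, and 8 to 13 with 1 array left out. Over all genes it was 851 when every probe set was fitted and adjusted together, 205 with the macrophage score, and 784 to 1295 with 1 array left out; the cause was not tested. With the replicate block, 1100 genes and 12 members passed. Sod2 lost its call (adjusted p = 0.0611) and Txnrd3 gained one (0.0468). Only 2 of 10 arrays correlated best with their own number, and deviations of same-numbered arrays correlated between −0.088 and 0.19. No pairing was seen, but so few arrays cannot exclude one. Leaving out control replicate 4 and DicerCN replicate 5 together gave 1154 genes and 9 members.

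Signs changed near 0 as follows. With the macrophage score, Gsta4 was −0.15, Gstt1 0.014, Gpx2 −0.046, Gpx3 −0.059, Gpx4 −0.14, Srxn1 0.023 and Hmox1 −0.054. With the retina score, Gclc was −0.035, Gss 0.0088, Gsta4 −0.14, Gsto1 0.071 and Prdx1 0.047. Without control replicate 4 and DicerCN replicate 5, Gclc was −0.020. After quantile normalization Gstp1 was 0.049. Gpx4 was −0.015 with the muscle and −0.0055 with the mesenchyme score, and Gpx7 was 0.021 with array weights, 0.024 with the red cell and 0.022 with the muscle score. With 1 array left out, Gsta4 ran from −0.041 to 0.29, Gsto1 from −0.088 to 0.027, Mgst3 from −0.052 to 0.073, Gpx2 from −0.039 to 0.16, Gpx4 from −0.030 to 0.057, Gpx5 from −0.033 to 0.13, Gpx7 from −0.066 to 0.023 and Prdx1 from −0.17 to 0.0070. Signal over background cannot be given without detection values.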

Other observations

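Selenocysteine is the catalytic residue of Gpx1, Gpx4 and the thioredoxin reductases. Of 20 measured genes of its synthesis and other selenoproteins, 1 rose and 4 fell, with a median log2 change of −0.023. Pstk, the kinase that phosphorylates the serine on the selenocysteine transfer RNA, fell by 0.42 (adjusted p = 0.0125), and Sepsecs, the enzyme that converts it to selenocysteine, by 0.24 (adjusted p = 0.0431). Selenoo, a mitochondrial selenoprotein, fell by 0.48 (adjusted p = 0.0145) and Selenow by 0.27 (adjusted p = 0.0395), while Selenop, a secreted selenium carrier, rose by 0.87 (adjusted p = 0.0346).

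Of 32 other thioredoxin-fold, sulfoxide-repair and superoxide genes, 3 rose and 1 fell, with a median log2 change of 0.039. These calls were 12.5% of the list, against 6.54% of all genes. Txndc12, a thiol oxidoreductase of the endoplasmic reticulum, rose by 0.51 (adjusted p = 0.00624), Sesn2, a stress-induced sestrin, by 0.56 (adjusted p = 0.0137) and Nxn, nucleoredoxin, by 0.38 (adjusted p = 0.0119). Ccs, the copper chaperone of Sod1, fell by 0.43 (adjusted p = 0.0271). Of 24 measured reported Atf4 targets, 1 rose (Sesn2) and 1 fell, with a median log2 change of −0.078. At 8.33% of the list this was near the 6.54% of all genes. Psph, the last enzyme of serine synthesis, fell by 0.46 (adjusted p = 0.00970), Slc7a5, an amino acid transporter, stood at −0.29 (adjusted p = 0.140), and Atf4 itself, named after its value was seen, at −0.059 (adjusted p = 0.797).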
